A study of Sus scrofa with 12 samples.

Results

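CD163, CD14, FGL2 and CHI3L1 are 4 genes known from monocytes and macrophages, and here they were followed through the endometrium of sows in early pregnancy. Their members on the array were every probe set whose platform annotation gave 1 of these symbols and no other, which yielded 9 of the 23999 probe sets tested, from 4 of the 6765 genes that had a probe set with a single symbol. FGL2 had 4 probe sets, CD163 and CD14 had 2 each and CHI3L1 had 1. The genes were picked with earlier results of these arrays known, among them that FGL2 differed with pregnancy and that 1 non-pregnant sow stood apart, so they count as chosen by their log2 levels in the pregnancy contrast, and their pregnancy differences are given as a description with no test.

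Endometrium came from 12 sows slaughtered on Day 14 after insemination, with 1 Affymetrix porcine array per sow. The groups were 3 pregnant Landrace, 3 non-pregnant Landrace, 3 pregnant Yorkshire and 3 non-pregnant Yorkshire sows, and the non-pregnant sows had been inseminated too, with inactivated semen. In every sow the horns were flushed before the mucosa, without its muscle layer, was sampled at several levels of each horn. An array therefore measured a mixture of cell types, among them epithelium, stroma, vessels and immune cells. In such tissue, fewer cells of a type and less RNA per cell cannot be told apart.

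Macrophages of the uterine mucosa clear dying cells and debris, sense microbial products and release factors that act on vessels and matrix, and their numbers and state are known to change around conceptus attachment. CD163 is the scavenger receptor with which macrophages take up complexes of haemoglobin and haptoglobin, whose haem is then broken down by haem oxygenase. CD14 binds lipopolysaccharide handed over by LBP and passes it to the receptor TLR4 and its partner LY96. FGL2 is a fibrinogen-like protein with a membrane form that cleaves prothrombin and a secreted form that binds the inhibitory Fc receptor FCGR2B. CHI3L1 is a secreted chitinase-like glycoprotein that binds chitin without cutting it and is made by macrophages, neutrophils and other cells under inflammatory stimuli.

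Expression values were log2 values of the RMA procedure, which makes the arrays' distributions alike, so each difference is relative to the rest of the array. Array medians lay between 6.25 and 6.30 and lower quartiles between 4.58 and 4.71, and values near the lower quartile hold mostly background. No filter on low values was used, and 4 of the 9 member probe sets (the first CD163 set and the first 3 FGL2 sets) exceeded the overall median on 3 or more arrays. The main CD14 set did so on 2 arrays and CHI3L1 on 1. Over all probe sets, an array's highest correlation with any other was never under 0.975. The lowest of these values belonged to non-pregnant Landrace sow 7, against 0.983 to 0.992 for the other 11. Pregnant Yorkshire sow 12 and pregnant Landrace sow 8 were each most like a non-pregnant sow of their breed, numbers 11 and 5. Results that rest on sow 7 are given with and without it. So are those that rest on sow 12, which had the lowest FGL2 level of the pregnant sows.

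FGL2, the fibrinogen-like gene, had the largest log2 difference of the 4 between the pregnancy groups. Its main probe set, the one with the highest mean, stood at 10.02, 9.68 and 9.24 in pregnant Landrace sows 6, 8 and 10, against 7.32, 9.02 and 7.46 in non-pregnant Landrace sows 5, 7 and 9. In Yorkshire it stood at 10.77, 10.36 and 8.26 in pregnant sows 2, 4 and 12, against 7.20, 7.23 and 7.50 in non-pregnant sows 1, 3 and 11. Pregnant sow 12 was the lowest of its group and non-pregnant sow 7 the highest of its own, and the groups overlapped through these 2 sows alone: 5 of 6 pregnant sows lay above every non-pregnant sow. The pregnant mean was 9.72 ± 0.892 and the non-pregnant mean 7.62 ± 0.693 (SD, n = 6 each), a log2 difference of 2.10 ± 0.42 (SE) or 4.28-fold. Leaving out sow 7 made it 2.38 ± 0.37, and leaving out sow 12 made it 2.40 ± 0.36. Leaving out the highest non-pregnant sow or the lowest pregnant sow raises a positive difference by construction.

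The second FGL2 probe set and the third followed the first. Their pregnant values ran from 7.75 to 10.09 and from 7.04 to 9.01, against 6.81 to 7.02 and 5.98 to 6.33 in the 5 non-pregnant sows other than sow 7. Sow 7 had 8.48 and 7.71 for them. Their log2 differences were 1.95 ± 0.39 and 1.73 ± 0.35 (SE). The fourth FGL2 probe set lay between 3.35 and 3.98 on all 12 arrays, below every array's lower quartile, and its difference was 0.12 ± 0.10.

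CD14, the lipopolysaccharide co-receptor, lay near the dim end of the scale, and its pregnancy groups overlapped through sow 7 alone. Its main probe set read 6.15, 5.72 and 6.68 in pregnant Landrace sows, against 5.40, 7.62 and 5.04 in non-pregnant Landrace sows, where the middle value is sow 7. In Yorkshire it read 5.73, 6.26 and 5.73 in pregnant sows, against 5.28, 5.04 and 4.92 in non-pregnant sows. All 6 pregnant sows were above the 5 other non-pregnant sows, and sow 7 was above them all. The means were 6.05 ± 0.391 in pregnant sows and 5.55 ± 1.03 in non-pregnant sows (n = 6 each, ± SD), a log2 difference of 0.50 ± 0.37 (SE). Without sow 7 the non-pregnant mean was 5.14 ± 0.197 (SD, n = 5) and the difference 0.89 ± 0.17, or 1.85-fold. Sow 7 was the highest non-pregnant sow for this set, so its omission raises the difference by construction. The other CD14 probe set did not follow, with 5.12 to 5.68 over all sows, 5.57 in sow 7 and a difference of 0.05 ± 0.10.

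CD163, the haemoglobin scavenger receptor, was nearly level across 11 sows and very high in the remaining one. Its main probe set read 6.69, 7.42 and 6.91 in pregnant Landrace sows, against 7.41, 11.11 and 7.38 in non-pregnant Landrace sows, and again the high value is sow 7. In Yorkshire it read 7.57, 7.37 and 7.15 in pregnant sows, against 7.12, 7.13 and 7.56 in non-pregnant sows. The pregnancy groups overlapped with and without sow 7. The means were 7.19 ± 0.335 among pregnant and 7.95 ± 1.56 among non-pregnant sows (n = 6 each, ± SD), a log2 difference of -0.77 ± 0.57 (SE) that shrank to -0.12 ± 0.15 without sow 7. The weaker CD163 probe set also had its highest value in sow 7, at 7.38 against 4.04 to 5.10 in the other 11 sows, whose order differed from that of the first set.

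CHI3L1, the chitinase-like glycoprotein, had the widest gap between sow 7 and the rest. Its single probe set read 5.59, 5.20 and 5.50 in pregnant Landrace sows, against 4.86, 10.29 and 4.31 in non-pregnant Landrace sows. In Yorkshire it read 4.87, 5.52 and 4.78 in pregnant sows, against 4.57, 4.75 and 4.89 in non-pregnant sows. Outside sow 7 the gene was below the median of all values, 6.28, on each array, and 4 of 6 pregnant sows were above the 5 remaining non-pregnant sows. The means were 5.24 ± 0.350 among pregnant and 5.61 ± 2.30 among non-pregnant sows (n = 6 each, ± SD). The log2 difference of -0.37 ± 0.81 (SE) turned to 0.55 ± 0.17 without sow 7, so that 1 array set its sign. Here too the highest non-pregnant sow is the one left out, which raises the difference by construction.

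**Figure D1:**
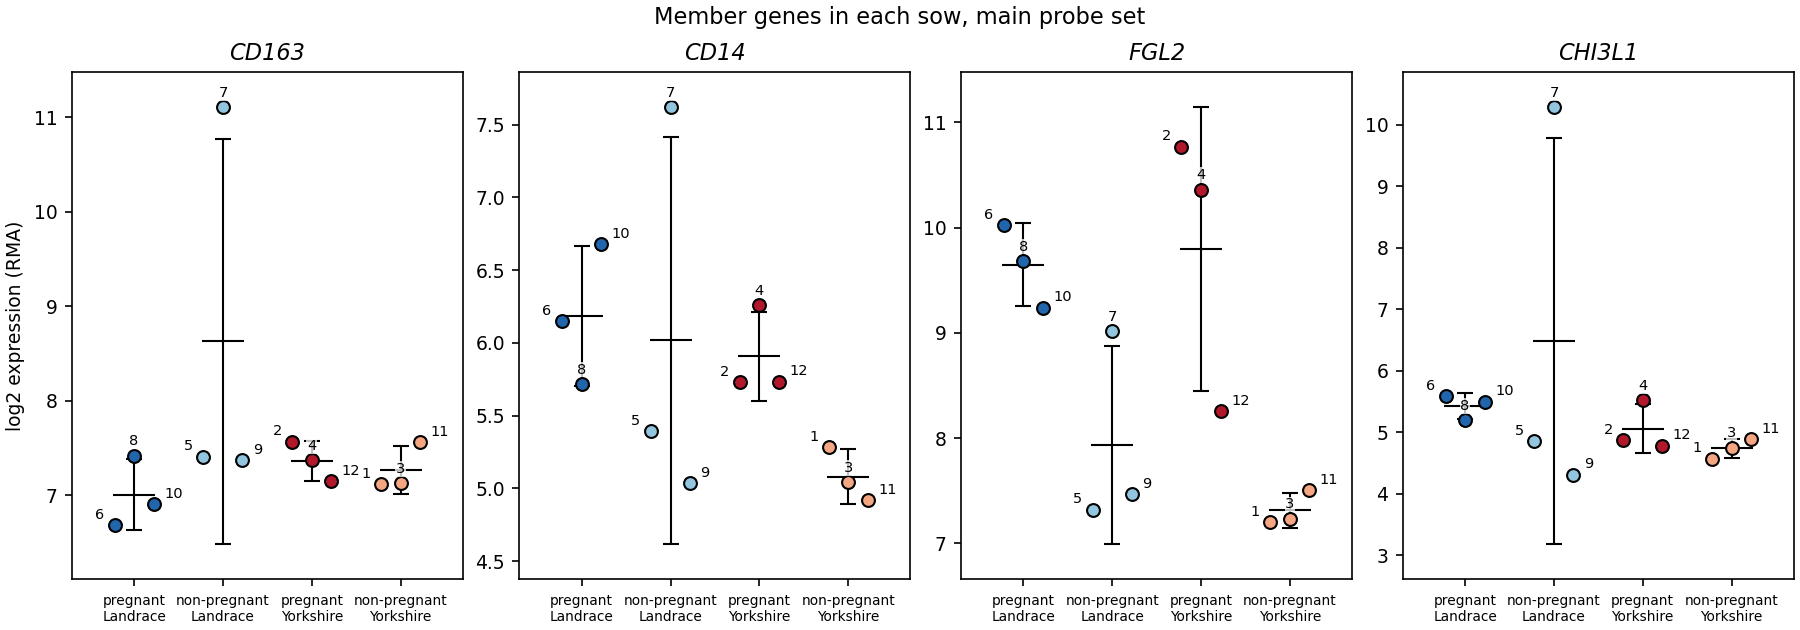
Log2 expression of the main probe set of each gene (vertical axis) in every sow, by group (horizontal axis); points are single sows with their numbers, horizontal bars are group means and error bars are SDs over 3 sows. FGL2 is high in pregnant sows of both breeds apart from sow 12, at 8.26, while CD163, CD14 and CHI3L1 have their highest value, 11.11, 7.62 and 10.29, in non-pregnant Landrace sow 7.

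Counted over the 9 probe sets, 0 had all 6 pregnant sows above all 6 non-pregnant ones, a pattern that 1.3% of all probe sets showed. With sow 7 left out, 4 did (the first CD14 set and the first 3 FGL2 sets), against 2.4% of all probe sets. Nothing is read from either share, since this contrast was known when the genes were chosen. The plot of all probe sets shows the first 3 FGL2 sets running alike, while the fourth FGL2 set and the second CD14 set, both below the overall median on every array, did not follow the main set of their gene.

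**Figure D2:**
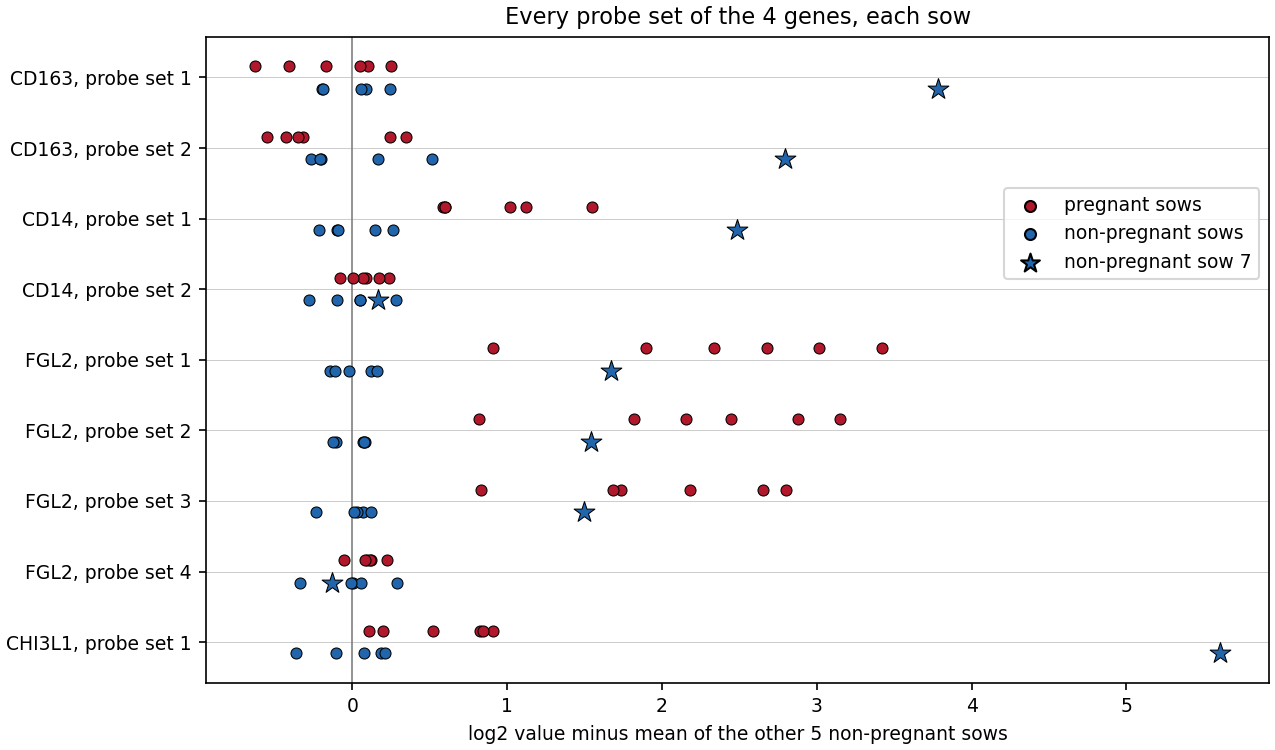
Each probe set of the 4 genes (rows) in each sow, as the log2 value minus the mean of the 5 non-pregnant sows other than sow 7 (horizontal axis); red circles are pregnant sows, blue circles non-pregnant sows and the star is non-pregnant sow 7. The star lies 5.61 above that mean for CHI3L1, 3.79 for the first CD163 set, 2.48 for the first CD14 set and 1.67 for the first FGL2 set.

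With all sows, the FGL2 and CD14 differences were positive within each breed. Those of CD163 and CHI3L1 were negative in Landrace and positive in Yorkshire. In Landrace the FGL2 difference between pregnant and non-pregnant sows was 1.71 ± 0.59 on the log2 scale, and 2.26 ± 0.57 without sow 7. In Yorkshire it was 2.48 ± 0.59, and 3.25 ± 0.43 without sow 12. The CD14 difference was 0.17 ± 0.53 in Landrace and 0.83 ± 0.53 in Yorkshire, and 0.97 ± 0.26 in Landrace once sow 7 was left out. The Landrace differences of CD163 and CHI3L1, -1.62 ± 0.76 and -1.06 ± 1.15, became -0.39 ± 0.22 and 0.84 ± 0.24 without sow 7. In Yorkshire, where no sow stood apart in these genes, they were 0.09 ± 0.76 and 0.32 ± 1.15. Sow 7 was the highest non-pregnant Landrace sow for all 4 genes, so leaving it out raises each Landrace difference by construction. The ± values within breeds are SEs from a variance pooled over the 4 groups, so sow 7 widens the Yorkshire ones too. Without sow 7 the Yorkshire SEs were 0.19 for CD163, 0.21 for CHI3L1 and 0.235 for CD14, with the same differences.

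Ordered by group mean, FGL2 was highest in pregnant Yorkshire (9.79 ± 1.35), followed by pregnant Landrace (9.65 ± 0.394), non-pregnant Landrace (7.93 ± 0.940) and non-pregnant Yorkshire (7.31 ± 0.166; SD, n = 3 each). Of its neighbouring groups, pregnant and non-pregnant Landrace did not overlap and the other pairs did. For CD14 the order was pregnant Landrace (6.18 ± 0.482), non-pregnant Landrace (6.02 ± 1.40), pregnant Yorkshire (5.91 ± 0.304) and non-pregnant Yorkshire (5.08 ± 0.187), and the last pair did not overlap. CD163 and CHI3L1 were both highest in non-pregnant Landrace, at 8.63 ± 2.14 and 6.49 ± 3.30, where the SD reflects sow 7. All their neighbouring groups overlapped.

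**Figure D3:**
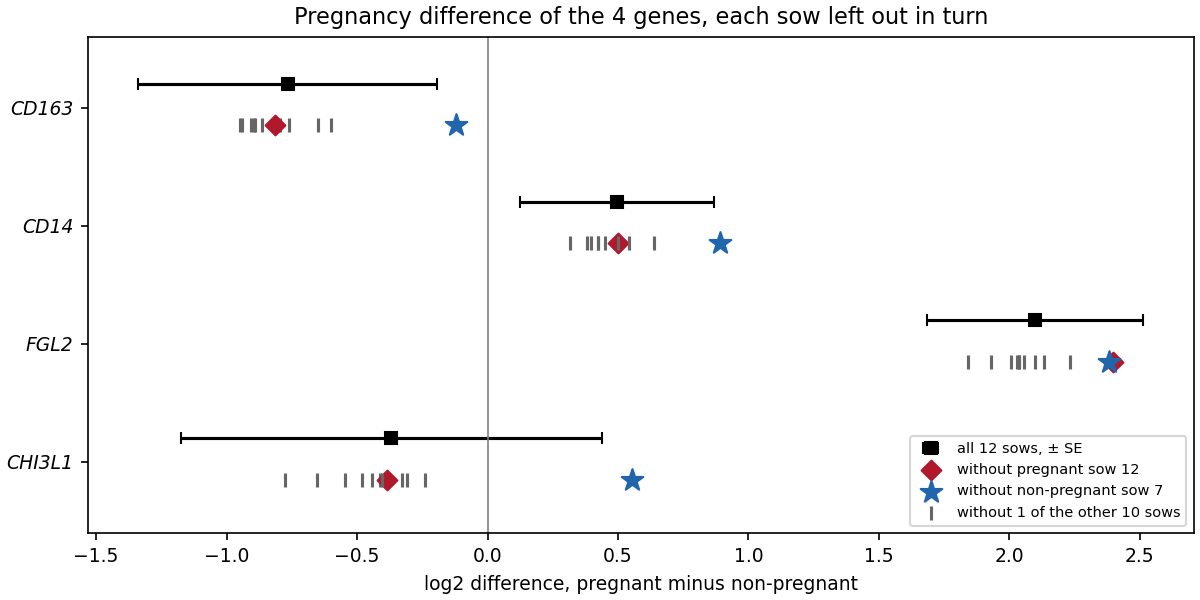
Log2 difference of each gene, pregnant minus non-pregnant (horizontal axis), with all 12 sows (black squares, error bars are SE), without pregnant sow 12 (red diamonds), without non-pregnant sow 7 (blue stars) and without each of the other sows (grey ticks). FGL2 stayed between 1.84 and 2.40, whereas the CD163, CD14 and CHI3L1 differences moved most when sow 7 was left out, CHI3L1 across 0.

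Breed was not the contrast by which these genes were chosen, and it was tested with limma over all probe sets. Sow 7, known to stand apart when the genes were chosen, is a Landrace sow. The breed and interaction p values are therefore not free of that choice. None of the 9 probe sets was called for breed (adjusted p under 0.05, Benjamini-Hochberg), against 5.15% of all probe sets. An unadjusted p under 0.05 was found for 0 of the 9, and for 1484 of 6765 genes. CHI3L1 averaged 5.96 in Landrace and 4.90 in Yorkshire sows, a difference of 1.06 ± 0.81 (limma adjusted p = 0.519). CD14 averaged 6.10 in Landrace and 5.49 in Yorkshire sows, 0.61 ± 0.37 apart (limma adjusted p = 0.406). The breed differences of CD163 and FGL2 were 0.50 ± 0.57 and 0.24 ± 0.42 (limma adjusted p = 0.688 and 0.809). The GAPDH controls (3′ minus 5′ probe set, larger where RNA is more degraded) differed between the breeds too, with 0.87 to 1.25 in Landrace and 1.31 to 1.63 in Yorkshire sows, and their part in these values was not tested. Without sow 7, which is a Landrace sow, the breed differences of the 4 main probe sets lay between -0.14 and 0.21, and the second CD163 set stood at -0.46 (limma adjusted p = 0.115).

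With sows 7 and 12 both left out, the second CD163 set was called lower in Landrace, with a difference of -0.56 ± 0.13 (limma adjusted p = 0.0490), against 0.05 ± 0.46 with all sows. It was the only 1 of the 9 called, where 3.33% of all probe sets were, and the main CD163 set stood at -0.17 ± 0.17 (limma adjusted p = 0.688). For the second CD163 set, sow 7 was the highest Landrace sow and sow 12 the lowest Yorkshire sow. Leaving out both lowers its breed difference by construction. Its values in the other 5 Landrace sows, 4.04 to 4.39, lay below every array's lower quartile. Among pregnant sows alone, the same omission gave a lower FGL2 level in Landrace than in Yorkshire, by -0.92, -0.87 and -0.86 for the first 3 sets (limma adjusted p = 0.0742, 0.0484 and 0.0373), with 1.3% of all probe sets called. With all sows these differences were -0.15, -0.14 and -0.23 (limma adjusted p = 0.959, 0.957 and 0.916). Sow 12 is the lowest pregnant Yorkshire sow for FGL2, so its omission lowers this difference by construction.

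The pregnancy difference was then compared between the breeds with the interaction term, Landrace minus Yorkshire. No member probe set was called and 0 had an unadjusted p under 0.05, and 0% of all probe sets were called (963, or 4.01%, had an unadjusted p under 0.05). The estimates were -1.72 for CD163, -0.66 for CD14, -0.77 for FGL2 and -1.38 for CHI3L1, each with a limma adjusted p of 1.00. Leaving out sow 7 turned the sign for CD14, to 0.14, and for CHI3L1, to 0.52. The standard errors of these estimates ran from 0.75 to 1.63 with all sows. Without sow 7 they were 0.29 for CD163, 0.35 for CD14, 0.76 for FGL2 and 0.32 for CHI3L1, and no member was called there either.

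Leaving out sow 12 moved the FGL2 interaction to -1.54 ± 0.58 (limma adjusted p = 0.496). The first 3 FGL2 sets then had unadjusted p values of 0.0237, 0.0290 and 0.0165 by limma, where 8.7% of all probe sets were under 0.05. Without sows 7 and 12 the main set stood at -0.996 ± 0.304 (limma adjusted p = 0.434), and the 3 unadjusted p values were 0.0086, 0.0071 and 0.0022 by limma, with 7.56% of all probe sets under 0.05. No member was called for the interaction in either fit. Sow 12 is the lowest pregnant Yorkshire sow for FGL2, so its omission lowers this interaction by construction. The 3 sets measure the same gene and are not separate results.

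Sow 7 was the highest of 12 for both CD163 probe sets, the main CD14 probe set and CHI3L1. It exceeded the next highest sow by 3.54 for CD163, 0.94 for CD14 and 4.70 for CHI3L1. For FGL2 it ranked 6, above all other non-pregnant sows and below 5 of the pregnant ones. Sow 7 was the highest array for 10.2% of all probe sets and 15.1% of all genes.

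Markers of the macrophage and monocyte lineage were high in the same sow. Of 23 measured markers besides the 4 genes, 19 (82.6%) had their highest value in sow 7, against 15.1% of all genes, and the median marker was 1.83 above the mean of the other 5 non-pregnant sows on the log2 scale (all genes 0.00). Apart from FCGR2B, the high markers named next were chosen with their values known. The Fc receptors FCGR3A and FCGR2B, which bind immune complexes, read 11.04 and 10.11 in sow 7, against 7.99 to 9.68 and 7.19 to 8.13 in the other 11 sows. The complement chains C1QA and C1QC, made by tissue macrophages, read 10.31 and 11.43, against at most 9.28 and 10.55 elsewhere. The mannose receptor MRC1 read 8.43, against at most 6.69, and the myeloid transcription factor SPI1 read 8.23, against at most 6.36. The exceptions were APOE, GPNMB, FOLR2 and ITGAM, which were not highest in sow 7. No marker was measured at 0, since RMA values have a floor of background.

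The mean of the 23 markers, set against its non-pregnant average, was 1.22 in sow 7, between -0.08 and 0.29 in the 6 pregnant sows and between -0.31 and -0.15 in the remaining non-pregnant sows. With all sows, 0 of the 23 were called for pregnancy by limma and 1 had an unadjusted p under 0.05, against 12.1% of all genes called. The 2 with the smallest p were APOE, a lipid carrier (0.24 ± 0.09, limma adjusted p = 0.132), and AIF1, a calcium-binding protein of macrophages (0.57 ± 0.46, limma adjusted p = 0.520). Without sow 7, 3 were called higher in pregnant sows: the signalling adaptor TYROBP by 0.46 (limma adjusted p = 0.0240), the cathepsin CTSS by 0.64 (limma adjusted p = 0.0351) and the lysosomal membrane protein LAPTM5 by 0.58 (limma adjusted p = 0.0264). In that fit 6.34% of all genes were called higher and 7.78% lower. Sow 7 was the highest non-pregnant sow for these 3 markers, so its omission raises their differences by construction. The list's median pregnancy difference was 0.04 with all sows and 0.23 without sow 7, against -0.03 and -0.02 over all genes.

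Other cell types' markers moved in sow 7 as well. T cell and natural killer cell markers had 8 of 13 highest there, with a median of 0.95 above the other non-pregnant sows, and CD3E, a chain of the T cell receptor complex, read 7.40 against at most 5.92 in the others. Dendritic and mast cell markers had 3 of 5 highest in sow 7, with a median of 0.51. B cell and plasma cell markers had 2 of 4, with 0.46. The share over all genes was 15.1%. Of 8 neutrophil markers 0 were highest in sow 7, although S100A9, a subunit of calprotectin, read 9.35 there against 3.16 to 3.91 in the remaining non-pregnant sows. The neutrophil list mean, set against its non-pregnant average, was 0.86 in sow 7. It was -0.34 to -0.08 in the remaining non-pregnant sows and 0.23 to 1.78 in pregnant sows. Endothelial, epithelial and stromal markers had 0 of 11, 1 of 11 and 2 of 12 highest in sow 7, and those of erythrocytes 0 of 5. Such counts over 12 sows miss genes that were higher still in pregnant sows. Sow 7 lay above the mean of the other 5 non-pregnant sows for 6 of 8 neutrophil and 9 of 11 endothelial markers. The same held for 4 of 11 epithelial, 4 of 12 stromal and 4 of 5 erythrocyte markers, and for 3406 of 6765 genes. The GAPDH difference (3′ minus 5′) was 0.87 in sow 7, the smallest of all and so the least sign of degraded RNA, against 0.97 to 1.63 elsewhere. The part of these markers and of RNA quality in the levels of CD163, CD14 and CHI3L1 was not tested.

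Genes that activated macrophages make were among the highest in sow 7 too. Inflammatory activation genes had 10 of 14 highest in sow 7 with a median of 1.12 above the other non-pregnant sows, genes of macrophage growth and recruitment 10 of 14 with 0.81, and genes of alternative activation 8 of 14 with 0.63. Examples chosen after their values were seen are CXCL8, the neutrophil chemokine, at 8.64 against 2.94 to 3.09 in the remaining non-pregnant sows and 2.91 to 3.11 in pregnant sows. SOD2, the mitochondrial superoxide dismutase, read 12.14 in sow 7, against at most 8.95 elsewhere. CCL2, which draws monocytes, read 10.67, against at most 8.53. ARG1, the arginase of alternatively activated macrophages in mice, read 5.92, against at most 3.25.

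**Figure D4:**
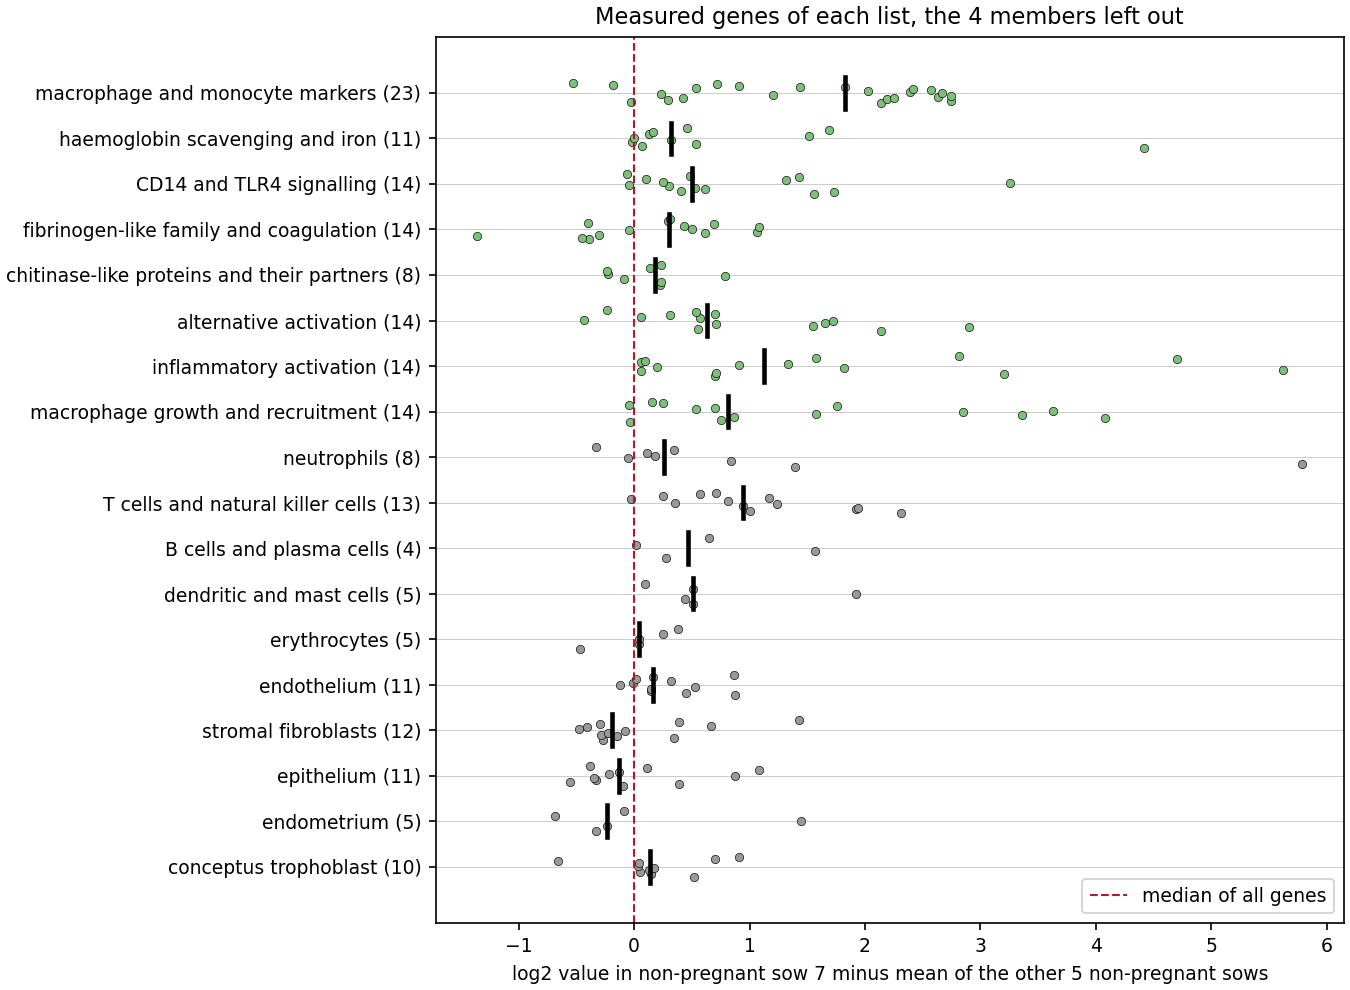
Measured genes of each list (rows, number of genes in brackets, the 4 genes themselves left out) as the log2 value in non-pregnant sow 7 minus the mean of the other 5 non-pregnant sows (horizontal axis); black bars are list medians, green marks lists tied to the 4 genes, grey marks other cell types and the dashed line is the median of all genes. The macrophage and monocyte list has the highest median, 1.83, and the endometrium list the lowest, -0.24.

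Around CD163, the haemoglobin and iron list was measured through 11 genes. Haptoglobin (HP), whose complex with haemoglobin is the ligand of CD163, read 9.49 in sow 7 against 3.78 to 5.64 in the remaining non-pregnant sows and 4.56 to 5.42 in pregnant sows. Its pregnancy difference was -0.78 ± 0.72 (limma adjusted p = 0.590). The haem oxygenase HMOX1 differed by 0.18 ± 0.13 with pregnancy (limma adjusted p = 0.493). The list had 2 genes called higher and 1 lower in pregnant sows, with 4.58% of all genes called higher and 7.48% lower. The iron importer SLC11A2 rose by 1.51 ± 0.34 (limma adjusted p = 0.0209) and the ferritin heavy chain FTH1 by 0.33 ± 0.09 (limma adjusted p = 0.0376), while the biliverdin reductase BLVRA fell by 0.62 on the log2 scale (limma adjusted p = 0.0399). Over the 12 fits that left out 1 sow each, these calls held in 7, 3 and 4 fits, with adjusted p values of at most 0.0542, 0.0895 and 0.0943.

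Around CD14, the TLR4 pathway was measured through 14 genes. With all sows 0 of them were called, against 12.1% of all genes, and 2 had an unadjusted p under 0.05 by limma. TLR4 averaged 7.89 ± 0.610 in pregnant sows and 7.01 ± 0.701 in non-pregnant sows (n = 6 each, ± SD), a difference of 0.88 ± 0.27 (limma adjusted p = 0.0640). LY96 differed by 0.61 ± 0.27 (limma adjusted p = 0.202), with sow 7 at 8.98 against 6.90 to 7.52 in the remaining non-pregnant sows and sow 12 at 7.39 against 8.22 to 8.39 in the other pregnant sows. The adaptor MYD88 differed by 0.17 ± 0.11 (limma adjusted p = 0.379) and LBP by -0.05 ± 0.10 (limma adjusted p = 0.842). Sow 7 was the highest array for 10 of the 14, and TLR2, a receptor of bacterial lipopeptides, read 8.29 there against at most 5.82 elsewhere. Without sow 7, 5 of the 14 were called higher in pregnant sows and 0 lower, against 6.34% and 7.78% of all genes. They were TLR4 by 1.09 (limma adjusted p = 0.0138), LY96 by 0.87 (0.0119), TLR2 by 0.52 (0.0283), TLR6 by 0.44 (0.0167) and MYD88 by 0.27 (0.0423). The highest non-pregnant sow is again the one left out.

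Around FGL2, 14 genes of the fibrinogen-like family and of coagulation were measured, and 1 was called with all sows, against 12.1% of all genes. Coagulation factor F5, the cofactor of the prothrombin-cleaving complex, rose by 1.06 ± 0.25 (limma adjusted p = 0.0242), a call that held in 7 of the 12 fits without 1 sow, with an adjusted p of at most 0.0615. The related FGL1 differed by -0.26 ± 0.22 (limma adjusted p = 0.538) and tissue factor F3 by 0.04 ± 0.24 (limma adjusted p = 0.949). The Fc receptor FCGR2B, which binds secreted FGL2, differed by -0.01 ± 0.39 (limma adjusted p = 0.991). Without sow 7, 4 of the 14 were called higher, against 6.34% of all genes. They included F5 by 1.21 (limma adjusted p = 0.0110). The rest, named after their values were seen, were the anticoagulant receptors THBD by 0.70 (0.0101) and PROCR by 0.55 (0.0372) and the plasminogen activator PLAT by 0.56 (0.0248). Sow 7 was the highest non-pregnant sow for each of the 4, so its omission raises these differences by construction. PROCR was also higher in Landrace than in Yorkshire by 0.66 ± 0.17 (limma adjusted p = 0.0478), with 5.26% of all genes called for breed.

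Around CHI3L1, 8 chitinase-like proteins and partners were measured. The integrin chain ITGAV, shared by several matrix receptors, rose by 0.77 ± 0.11 (limma adjusted p = 0.0052) and was called in all 12 fits without 1 sow. Galectin-3 (LGALS3), a lectin reported to pair with CHI3L1, fell by 0.57 on the log2 scale (limma adjusted p = 0.0484), a call that held in 1 of those 12 fits, with adjusted p values of up to 0.107. The receptor TMEM219 differed by less than 0.01 (0.00 ± 0.09, limma adjusted p = 0.998), the chitinase CHIA by 0.12 ± 0.07 (limma adjusted p = 0.349). Sow 7 was highest for 1 of the 8, so CHI3L1 itself, at 10.29, was not accompanied there by most of the genes listed with it.

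The 3 lists of macrophage state had 0, 1 and 1 of 14 genes called for pregnancy, against 12.1% of all genes. Of 14 inflammatory activation genes 0 were called and 1 had an unadjusted p under 0.05 by limma, the 2 with the smallest p being the prostaglandin synthase PTGS2 (-0.74 ± 0.32, adjusted p = 0.189) and IL12A (0.16 ± 0.08, adjusted p = 0.272). Of 14 alternative activation genes, LGALS3 was the 1 called, and STAT6, which relays interleukin-4, was lower in Landrace than in Yorkshire, with a difference of -0.51 ± 0.10 (limma adjusted p = 0.0138). Of 14 growth and recruitment genes, the cytokine MIF fell by 0.81 on the log2 scale (limma adjusted p = 0.0034), with 9.87 to 10.62 in pregnant sows against 10.91 to 11.14 in non-pregnant sows. That call held in all 12 fits without 1 sow. CSF1, CSF1R, F2 and IL13RA2 were not analysed here.

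Markers of other cell types were set beside the FGL2 and CD14 differences, with 4.58% of all genes called higher and 7.48% lower. The neutrophil list had 1 of 8 called, close to the share of all genes. It was S100A9, which averaged 11.58 ± 1.91 in pregnant sows and 4.53 ± 2.38 in non-pregnant sows (n = 6 each, ± SD; limma adjusted p = 0.0052). Endothelial markers had 7 of 11 called higher, stromal markers 5 of 12 higher and 1 lower, and epithelial markers 2 of 11 lower. T cell and natural killer cell markers had 0 of 13 called (2 with an unadjusted p under 0.05), and erythrocyte markers 0 of 5 (1 with an unadjusted p under 0.05). The endothelial list mean ran from 0.32 to 0.76 in pregnant sows and from -0.28 to 0.26 in non-pregnant sows, and the stromal list mean from 0.02 to 0.54 in pregnant sows and from -0.32 to 0.22 in non-pregnant sows, each relative to its non-pregnant average. The conceptus trophoblast list, with 10 genes measured, had 0 called higher and 1 lower. On the same scale its mean was 1.45 in pregnant sow 10 and -0.11 to 0.37 in the other pregnant sows. Non-pregnant sows had -0.22 to 0.17. Sow 10 read 6.68 for CD14, the highest of the pregnant sows, and 9.24 for FGL2. The part of these cell types in the FGL2 and CD14 differences was not tested.

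The 4 genes were also compared with one another by their deviations from the 4 group means. An exact two-sided permutation of sows within groups (1296 arrangements) was used for the 6 pairs. Sow 7, known to stand apart when the genes were chosen, keeps its excess in these deviations. The permutation p values are therefore not free of that choice. CD163 and CHI3L1 correlated at r = 0.957 (rho = 0.552; permutation p = 0.201 and 0.198, adjusted 0.275 and 0.297). CD14 and CHI3L1 correlated at r = 0.940 (rho = 0.867; permutation p = 0.0216 and 0.0363, adjusted 0.130 and 0.117). The other pairs had r from 0.501 to 0.844 and rho from 0.413 to 0.741, with adjusted permutation p between 0.155 and 0.275 for r and between 0.117 and 0.362 for rho, so no pair passed the adjusted threshold. Without sow 7, an alternative chosen after seeing the data, r was -0.0989 for CD163 and CHI3L1, 0.609 for CD14 and CHI3L1 and -0.470 for CD163 and CD14, so the relation of CD163 to CD14 and to CHI3L1 rested on that sow. CD163 and FGL2 stood at r = 0.611 with all sows, 0.387 without sow 7 and 0.633 without sows 7 and 6. Without the 2 sows farthest from the median of the first gene, sows 7 and 6 for CD163 and sows 7 and 10 for CD14, r was 0.0488 and 0.738 for the first 2 pairs.

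The genes most like each of the 4 were ranked by Pearson's r of log2 values over the 12 arrays, among the 5100 genes that exceeded the overall median value on 3 or more arrays, as a description. For FGL2 they were SCIN, an actin-severing protein (r = 0.976), S100A9 (0.966), the serine carboxypeptidase SCPEP1 (0.961) and the mitochondrial magnesium channel MRS2 (0.956), and without sow 7 these stayed at 0.961 to 0.982. SCIN read 7.58 to 9.07 in pregnant sows, against 8.05 in sow 7 and 6.68 to 7.21 in the remaining non-pregnant sows. For CD14 they were the transcription factor TEAD4 (0.974), the lipid phosphatase PLPP1 (0.958), the cathepsin CTSB (0.954) and the tumour necrosis factor receptor TNFRSF1B (0.942), with 0.872 to 0.944 without sow 7.

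For CD163 and CHI3L1 the likeness was mostly that of sow 7. CD163 was nearest to the metalloproteinase inhibitor TIMP1 (r = 0.974), the B cell chemokine CXCL13 (0.966), the leukocyte plastin LCP1 (0.958) and the kinase NEK6 (0.957), and without sow 7 these were 0.550, 0.0446, 0.227 and 0.625. CXCL13 read 12.59 in sow 7, against 5.79 to 6.49 in the other 11 sows. CHI3L1 was nearest to the granule proteoglycan SRGN (0.983), CXCL13 (0.979), SOD2 (0.978) and GP91-PHOX, the catalytic chain of the phagocyte oxidase (0.973). Without sow 7 these were 0.835, 0.580, 0.911 and 0.552. By deviations from the group means, the nearest genes were SPP1 for CD163 (r = 0.988), TEAD4 for CD14 (0.986), GCLC for FGL2 (0.937) and CXCL13 for CHI3L1 (0.986). SPP1, the secreted matrix protein osteopontin, read 12.23 in sow 7 against 7.30 to 9.09 in the others.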

How the data were processed

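Total RNA of endometrium from 12 sows was labelled and hybridised to Affymetrix porcine arrays, 1 per sow. Each deposited value is a log2 expression level of a probe set. The submitters' processing notes name RMA and the affy and limma packages, without versions. Of 24123 probe sets, 23999 were tested, since the 124 manufacturer controls carry no gene. Symbols came from the platform annotation table, with 10069 probe sets having 1 symbol. A gene with several was represented by its brightest one on average.

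Tests used limma 3.58.1 under R 4.3.3 (lmFit, eBayes, two-sided, Benjamini-Hochberg over all 23999 probe sets, called at adjusted p under 0.05). Pregnancy and breed were additive terms in 1 fit (9 residual degrees of freedom), and within-breed values and the interaction came from a fit of 4 groups (8 residual degrees of freedom). The fits were tested on simulated data. There the interaction fit recovered 1.5%, 44.8% and 87.9% of log2 changes of 0.5, 1 and 2. For breed the shares were 53.7%, 85.1% and 97.0%. The changed probe sets were drawn from all, so these shares are not those of the 4 genes. Correlations used exact permutations in Python 3.11.15. The replicates are separate sows, per the labels. No 2 arrays were identical, and precision is limited by how many arrays there were.

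The members and the 18 gene lists were chosen with earlier results of these data known. Genes named by rule come from the 4 members, 13 direct partners where measured, and the 4 genes most like each member. From each list the rule takes up to 4 called genes with the smallest p (2 where none was called) and up to 2 called for breed. Not every gene that the rule gave is named. Other list genes, such as FCGR3A, C1QA, C1QC, MRC1, SPI1, CD3E and TLR2, were named with their values known. Alternatives were cyclic loess, median centring, leaving out dim probe sets, a trend and robust prior, array weights, no second factor, and leaving out sows. The genome build is not given in the sources used here. Coordinates and sequences are therefore not shown.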

Additional observations from a re-analysis of the deposited data

Results flagged for a closer look

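Sows that stood far from the rest of their pregnancy group of 6 were looked for with Dixon's ratio (the gap to the nearest sow over the group's range, critical value 0.625), over 106 sets of values. It found 16, and 12 of the 16 were non-pregnant sow 7. Chance gives about 1 in 20 for values picked blindly, but the genes were picked knowing that sow 7 stood apart, so its ratios are a description and are not set against that share.

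In sow 7 the ratio was 0.89 for the first CD163 probe set and 0.744 for the second, 0.823 for the first CD14 set, 0.834, 0.878 and 0.797 for the first 3 FGL2 sets and 0.903 for CHI3L1. Among other genes it was 0.771 for AIF1, 0.704 for LY96, 0.879 for S100A9, 0.674 for HP and 0.769 for FCGR2B in the same sow.

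The other distant sows were pregnant sow 12, low for LY96 (0.831) and S100A9 (0.855), pregnant sow 4, low for ITGAV (0.683), and non-pregnant sow 3, high for MIF (0.737).

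For CHI3L1, every pregnant Landrace sow was below the non-pregnant Landrace mean and every pregnant Yorkshire sow was above the non-pregnant Yorkshire mean. The non-pregnant Landrace mean, 6.49, rests on sow 7 at 10.29. Every pregnant Landrace sow, at 5.20 to 5.59, lay above the other non-pregnant Landrace sows, at 4.86 and 4.31. The interaction was -1.380 on the log2 scale (limma adjusted p = 1.00), and 0.52 without sow 7.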

How the results depend on the processing

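Of the 4 genes, FGL2 and CD14 kept a positive pregnancy difference under every alternative run (1.84 to 2.75 and 0.32 to 0.94) and CD163 a negative one (-0.95 to -0.0935). With array weights and without sows 7 and 12, CD14 stood at 0.75 and 0.94, against 0.50 with all sows, and CD163 at -0.41 and -0.0935, against -0.77. CHI3L1 turned sign without sow 7 (the range over the 12 fits without 1 sow was -0.77 to 0.55), with array weights (0.21) and without sows 7 and 12 (0.65). CD14 and CHI3L1 have no value with dim probe sets left out, since their main probe sets are among those removed. Breed differences turned sign for CD163 without sows 7 and 12 (-0.17; without 1 sow, -0.14 to 0.68) and for FGL2 with array weights (-0.072), without sows 7 and 12 (-0.42) and within the range without 1 sow (-0.062 to 0.50). Interactions turned for CD14 (0.053 without sows 7 and 12; -1.15 to 0.14 without 1 sow) and CHI3L1 (0.38; -2.47 to 0.52). Correlations turned without sow 7 for CD163 and CD14 (-0.470), CD163 and CHI3L1 (-0.0989) and CD14 and FGL2 (-0.0067), and for CD163 and CD14 without sows 7 and 6 (-0.594). For FGL2 and CHI3L1 that last alternative left out 3 sows, since a group left with 1 sow was dropped. No breed difference or interaction of a main probe set that turned sign was called and no correlation passed its adjusted threshold, while the second CD163 set turned and was called for breed without sows 7 and 12 (-0.56). The cause was not tested.

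Probe sets called higher with pregnancy (947) numbered 1697 with array weights, 579 with no breed term, 1492 without sows 7 and 12 and 514 to 1201 without 1 sow. Those called lower (945) numbered 1943, 586, 1721 and 437 to 1425. For breed, 312 were higher in Landrace with no pregnancy term (533; 332 to 613 without 1 sow) and 439 were lower without sows 7 and 12 (703; 465 to 729). The interaction called 2 with array weights, 29 without sows 7 and 12 and 0 to 18 without 1 sow. No paired analysis was possible because the groups share no replicate numbers.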
